A study of Rattus norvegicus with 32 samples.

Results

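The comparison described here was that of female Wistar rats after cecal ligation and puncture (CLP) with female rats after a sham operation. It rested on 10 arrays, 5 from sham hearts and 5 from CLP hearts, of 32 in the whole series, and the samples were taken by their sex and treatment labels. The series measured mRNA in the left ventricle of male and female rats in 3 groups per sex: sham, CLP and CLP plus the β1-blocker landiolol. CLP opens the gut to the abdomen and gives a polymicrobial abdominal sepsis. The rats were 9–12 weeks old, and no genetic change is named for them. The hearts compared here came from rats that received saline in place of landiolol, the infusion starting 1 h after the operation, and buprenorphine against pain. Antibiotics were not given to any group. All hearts were collected at 20 h and were perfused ex vivo before they were frozen, sham hearts included, so the values describe perfused hearts of both groups. Each array held the RNA of 1 rat. The 6 female arrays of the landiolol group took part in the normalisation and in the estimate of the spread, and their values are given beside some genes.

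In sepsis the heart muscle is reached by bacterial products, cytokines and catecholamines at the same time. Innate cells and resident heart cells answer cytokines of the IL-6 and IL-1 families with secreted acute-phase and antimicrobial proteins, mostly through STAT3, C/EBP and NF-kappaB. Type I and type II interferons act through IRF1 and related factors on another set of genes, which includes chemokines that attract T cells, guanylate-binding proteins and the machinery that presents peptides on MHC class I. Catecholamines act on α- and β-adrenergic receptors of the cardiomyocyte, and lasting stimulation is known to change the amounts of the receptors, of their kinases and of the phosphodiesterases that degrade cAMP.

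Between 36151 and 38705 of the 58717 non-control spots were well above background on the 10 arrays, and the correlation of any 2 of the 16 female arrays lay between 0.93 and 0.986. CLP replicate 5 stood farthest from its group, with a mean correlation of 0.951 with the other CLP arrays, against 0.958 to 0.97 for the others and 0.974 to 0.979 within the sham group. Of 15 genes that mark cardiomyocytes, all 15 were measured and none passed the test in limma at a false discovery rate (FDR) of 1%, with 3 at an unadjusted p under 0.05 and 1 called by SAM. Their median log2 difference was 0.01. The 5 sham arrays all lay in the upper row of the slides, whereas CLP replicates 4 and 5 and all landiolol arrays lay in the lower row. Each of the 2 slides held both groups. The slides were extracted with different protocols, GE1_107_Sep09 for sham replicates 1, 3 and 5 and CLP replicates 2 and 4, and GE1_105_Dec08 for the others. All male arrays had the latter. With the slide as a term, 708 genes were called in females.

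At an FDR of 1%, 735 of 19451 genes differed between CLP and sham in females (3.78%), each gene being read from its brightest measured probe. Of these, 368 were up-regulated (1.89% of the genes tested) and 367 were down-regulated (1.89%). The size was large for a minority, as 78 genes rose and 79 fell by more than 2 on the log2 scale, and the median size among the 735 genes was 1.28. Single arrays of the groups did not overlap for 691 of the 735 genes, whereas the groups did not overlap for 1673 of all genes (8.6%). The median log2 difference over all genes was -0.02, and 48.2% of genes were above 0. The count fell to 464 without sham replicate 1, 475 without sham replicate 5 and 479 without CLP replicate 3. It was 273 when the fit also held a term for the upper or lower row. Of the 87 called genes that the naming rule took, 43 then lost their call. With the 3 CLP arrays of the upper row alone the count was 324. These 2 fits give the same log2 differences, because only the CLP group had arrays in both rows. Both set the 3 upper-row CLP arrays against the sham arrays and differ in the estimate of the spread. All 735 genes kept their direction there, which for 691 of them follows from the lack of overlap.

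**Figure D1:**
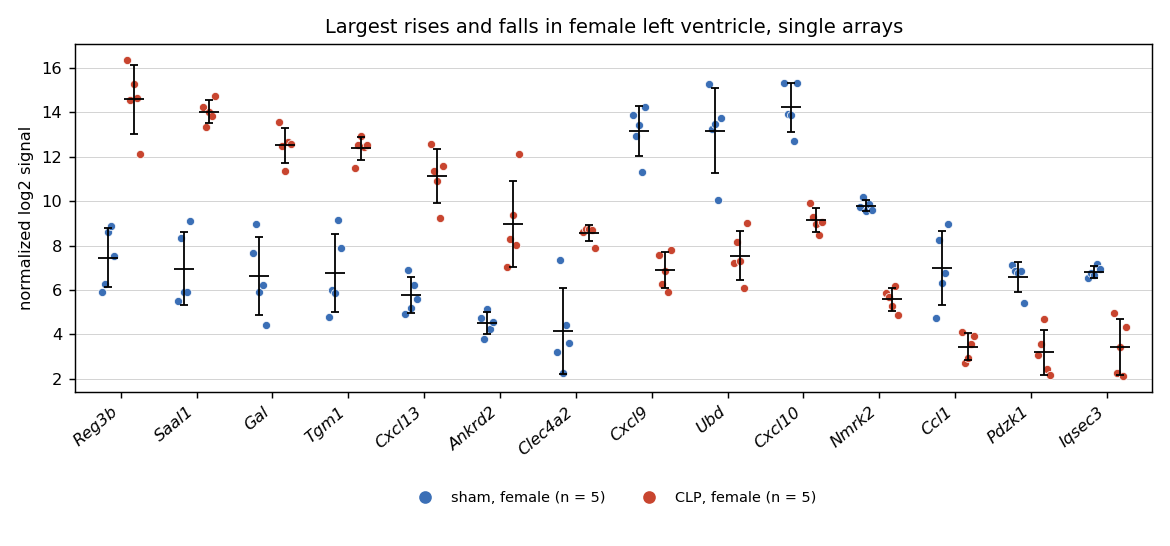
The normalised log2 signal (vertical axis) is plotted for each of the 5 sham and 5 CLP arrays of females, for 14 genes, 7 rises and 7 falls of the greatest size among called genes whose groups do not overlap. Black bars give the group mean ± SD. That the groups are apart was a condition of the choice, which leaves out Ido1 (-5.68), and the change runs from a rise of 7.14 for Reg3b to a fall of 6.27 for Cxcl9.

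Acute-phase and secreted defence proteins held the 2 largest rises, Reg3b and the probe named Saal1. Of 27 genes listed, 23 were measured, 10 rose, against 1.89% of all genes, and none fell. The 10 include the probe named Saal1, whose gene is not settled. The median log2 difference of the 23 was 1.63, against -0.02 over all genes, and 21 of them were above 0. All gene lists were chosen with earlier results of these data known, so their counts and medians are not independent evidence. Reg3b, a secreted lectin that binds bacteria, read 5.93, 6.28, 8.63, 8.87 and 7.54 on the 5 sham arrays and 16.36, 14.56, 15.26, 14.64 and 12.13 on the 5 CLP arrays in normalised log2 signal. Every CLP array was above every sham array, and the log2 difference was 7.14 ± 1.09 (adjusted p = 0.000832) by limma, ± giving the standard error, with 5 arrays per group. The probe named Saal1 read 5.5, 8.35, 5.91, 5.91 and 9.09 on the 5 sham arrays and 14.24, 13.34, 14.01, 13.81 and 14.71 on the 5 CLP arrays. Its log2 difference was 7.07 ± 0.6 (adjusted p = 1.68e-05), and again the groups did not overlap. The name is not settled: RefSeq now lists Saal1 as an older name of Saa3, a serum amyloid A protein, and as the present name of a neighbouring gene whose own probe differed by 0.26 ± 0.14 (adjusted p = 0.28). On the rn4 build of the files the Saal1 probe lies at chr1:97248442-97248501.

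Lcn2, which encodes the iron-scavenging protein lipocalin, read 10.86, 10.87, 11.49, 9.76 and 12.35 on the 5 sham arrays and 14.43, 15.3, 15.26, 14.68 and 14.77 on the 5 CLP arrays. The difference was 3.82 ± 0.41 (adjusted p = 5.95e-05). C3, the central component of complement, rose by 3.89 ± 0.39 (adjusted p = 3.46e-05), and it was the only gene to pass among 26 measured in complement and coagulation, where the median was -0.14. Orm1, an acute-phase carrier protein, read 7.25, 7.39, 7.15, 7.06 and 7.01 on the 5 sham arrays and 9.42, 9.24, 9.5, 9.64 and 9.44 on the 5 CLP arrays. The arrays lay close together within each group (SD 0.15 and 0.14), and the rise was 2.27 ± 0.38 (adjusted p = 0.00145). Lbp, which hands endotoxin to CD14, rose by 2.03 ± 0.22 (adjusted p = 5.95e-05). Slpi, an inhibitor of leukocyte elastase, rose by 2.96 ± 0.29 (adjusted p = 3.11e-05). Slpil3, a related gene that the list did not hold and whose probe may share signal with Slpi, rose by 2.95 ± 0.27 (adjusted p = 2.24e-05). Reg3g, Wfdc21 and Lgals3 completed the 10. Their calls were the less firm ones, as Reg3g (3.7) had an adjusted p of 0.017 without sham replicate 5, Wfdc21 (3.1) one of 0.0234 without sham replicate 1 and Lgals3 (0.74) one of 0.0111 without sham replicate 1. Members that did not pass included the haptoglobin gene Hp (-0.04 ± 0.31), the protease inhibitor Serpina3n (0.23 ± 0.28 at its brightest probe, 2 of its 4 probes passing) and Timp1 (1.21 ± 0.50). In fits that each left out 1 array the list had 7 to 10 called genes, and it had 6 with the row as a term.

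Stat3, which relays IL-6 family signals to the nucleus, read 12.57, 12.29, 12.8, 12.39 and 12.52 on the 5 sham arrays and 13.39, 13.44, 13.76, 13.36 and 13.93 on the 5 CLP arrays. Its difference was 1.06 ± 0.18 (adjusted p = 0.00157), and it was the only called gene of 25 measured in the IL-6 family, STAT and SOCS list, against 3.78% of all genes. The list median was 0.19. Socs3, the feedback inhibitor of that pathway, differed by 1.05 ± 0.31 (adjusted p = 0.047), and Il6 by 0.15 ± 0.62 (adjusted p = 0.927). In the list of IL-1, TNF, Toll-like receptor and NF-kappaB genes, 2 of 34 rose, against 1.89% of all genes. These were Il1r2, a decoy receptor for IL-1, by 2.35 ± 0.31 (adjusted p = 0.000283), and Il18 by 1.0 ± 0.16 (adjusted p = 0.00133). The cytokine genes Il1b and Tnf differed by 0.47 ± 0.58 (adjusted p = 0.693) and by -1.11 ± 0.56 (adjusted p = 0.255). Among 23 chemokines, Cxcl13, which attracts B cells, read 4.92, 6.9, 5.21, 6.21 and 5.61 on the 5 sham arrays and 12.55, 11.36, 10.91, 9.23 and 11.57 on the 5 CLP arrays. The rise was 5.36 ± 0.52 (adjusted p = 3.11e-05). Cx3cl1, a chemokine that endothelial cells carry on their surface, fell by 1.96 ± 0.33 (adjusted p = 0.00162), and Xcl1 fell by 1.69 ± 0.21 (adjusted p = 0.000162). Ccl1, which the list did not hold, was well above background on all 5 sham arrays and on no CLP array, and was at least 6.53-fold lower after CLP (measured means 7.0 and 3.46, adjusted p = 0.00559). Such a bound sets the mean of the brighter group against the dimmest signal that was well above background on each array of the dimmer group, or the probe's own signal where higher. It holds for the normalised signal used here and was not computed under other background corrections. The Ccl1 call had an adjusted p of 0.0164 without sham replicate 2. Stat3, Cx3cl1 and Ccl1 no longer passed with the row as a term (adjusted p from 0.0103 to 0.0209). With normexp background correction, which adds an offset of 50 and so compresses dim signals, the log2 difference was smaller for Il1r2 (1.5) and Ccl1 (-1.47, adjusted p 0.0125). Ccl1 (-1.85, adjusted p 0.0256) was also smaller in the normalised table of the authors.

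Marker genes of leukocytes were mixed. Of 19 neutrophil genes 18 were on the array and 5 passed the filter on dim probes, and Mpo, Elane, Mmp8, Camp and Cxcr2 were not among them. S100a8, a calcium-binding protein of neutrophils and monocytes, read 4.29, 2.13, 2.51, 3.82 and 2.29 on the 5 sham arrays and 6.51, 6.67, 7.35, 7.99 and 7.26 on the 5 CLP arrays. It was well above background on 1 sham array and on all 5 CLP arrays, and differed by 4.15 ± 0.52 (adjusted p = 0.000189). Il1r2, given above, was the other of the 2 neutrophil list genes that rose, and S100a9, the partner of S100a8, differed by 1.95 ± 0.54 (adjusted p = 0.0328). The other measured members, the formyl peptide receptor Fpr1 and Retnlg, differed by -1.24 (adjusted p = 0.0554) and by -0.6 (adjusted p = 0.31). The summed signal of the 5 measured genes lay between 109 and 184 on the sham arrays and between 346 and 940 on the CLP arrays. In tissue RNA a larger number of cells of a type and more RNA per cell cannot be told apart. Of 17 macrophage and monocyte genes, 4 rose, against 1.89% of all genes, and the median was 0.39. Adgre1, a surface receptor of macrophages, was at 6.96, 8.27, 6.89, 7.31 and 7.32 on the 5 sham arrays and 10.51, 10.52, 10.47, 9.24 and 9.95 on the 5 CLP arrays, a difference of 2.79 ± 0.36 (adjusted p = 0.000259). Lyz2 (1.01), Msr1 (1.08) and Cd68 (0.72) were the others, and their adjusted p rose to 0.0112 for Lyz2 without sham replicate 5, 0.0158 for Msr1 without CLP replicate 3 and 0.0256 for Cd68 without sham replicate 5. The other Msr1 probe differed by 0.63 (adjusted p = 0.358). Csf1r and the complement genes C1qa, C1qb and C1qc, which tissue macrophages express, differed by -0.01, 0.09, 0.01 and 0.01, and none passed. Among 10 measured lymphocyte and NK cell genes Gzmb, the granzyme of cytotoxic cells, fell by 1.84 ± 0.36 (adjusted p = 0.00419, and 0.0133 without CLP replicate 4), with a list median of -0.39. Clec4a2 and Siglec5, lectins of myeloid cells, were among the 15 largest rises. Clec4a2 was well above background on 2 of 5 sham arrays and on all CLP arrays, and rose by 4.39 ± 0.63 (adjusted p = 0.000543). Siglec5 was well above background on no sham array and on all CLP arrays, which makes it at least 5.82-fold higher (measured means 3.14 and 6.82, adjusted p = 2.73e-05). Red cell RNA stood apart on 1 array, as Hba1, the haemoglobin α chain, was at 16.72 on CLP replicate 4 and between 10.73 and 13.48 on the other 9 arrays. Hba1 differed by 1.65 ± 0.87 (adjusted p = 0.276), and 495 genes were called without that array. Lyz2, Msr1, Cd68 and Gzmb no longer passed with the row as a term (adjusted p from 0.0103 to 0.036). Under normexp correction of the background, smaller log2 differences were obtained for S100a8 (1.4), Msr1 (0.68), Gzmb (-0.9, adjusted p 0.0118), Clec4a2 (2.11) and Siglec5 (1.32). S100a8 (1.97), Clec4a2 (2.88) and Siglec5 (1.51) were also smaller in the normalised table of the authors.

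The interferon-induced genes moved the other way and gave the largest falls. Of 42 measured, 14 fell, against 1.89% of all genes, and none rose. Of the 42, 41 were below 0, and the median was -1.22 against -0.02 over all genes. Cxcl9, an interferon-γ-induced chemokine for T cells, read 13.86, 12.93, 13.42, 11.32 and 14.24 on the 5 sham arrays and 7.58, 6.26, 6.87, 5.93 and 7.79 on the 5 CLP arrays. The lowest sham array was above the highest CLP array by more than 3 on the log2 scale, and the difference was -6.27 ± 0.54 (adjusted p = 1.68e-05). Its neighbour in the genome, Cxcl10, read 15.3, 13.93, 13.87, 12.7 and 15.31 on the 5 sham arrays and 9.93, 9.3, 8.97, 8.47 and 9.06 on the 5 CLP arrays. It fell by 5.08 ± 0.44 (adjusted p = 1.68e-05). Ubd, a ubiquitin-like modifier that marks proteins for the proteasome, read 15.26, 13.26, 13.49, 10.04 and 13.74 on the 5 sham arrays and 7.21, 8.15, 7.3, 6.09 and 9.0 on the 5 CLP arrays. Sham replicate 4 was the lowest sham array for all 3 genes and was above every CLP array, and the Ubd difference was -5.61 ± 0.75 (adjusted p = 0.000313). Ido1, which degrades tryptophan, differed by -5.68 ± 1.16 (adjusted p = 0.00579), but CLP replicate 5 reached 10.21 and overlapped the sham arrays, and the adjusted p was 0.0177 without sham replicate 3. Batf2, a transcription factor induced by interferon that the list did not hold, fell by 3.3 ± 0.42 (adjusted p = 0.000235). Ido1 no longer passed with the row as a term (adjusted p = 0.0105).

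The other members that passed included effectors and regulators. The guanylate-binding proteins Gbp2, Gbp4 and Gbp5, which attack intracellular pathogens, fell by 3.0 ± 0.49, 3.05 ± 0.42 and 2.8 ± 0.41. Nlrc5, the transactivator of MHC class I genes, read 13.21, 12.73, 13.04, 11.28 and 12.46 on the 5 sham arrays and 9.85, 10.3, 9.81, 8.78 and 11.48 on the 5 CLP arrays. CLP replicate 5 overlapped the sham arrays, and Nlrc5 fell by 2.5 ± 0.42 (adjusted p = 0.0015). Irf1, a transcription factor that drives many of these genes, read 16.31, 16.2, 16.26, 16.05 and 16.58 on the 5 sham arrays and 14.9, 13.19, 14.07, 13.77 and 14.27 on the 5 CLP arrays. Its difference was -2.24 ± 0.39 (adjusted p = 0.00215). Rsad2 and Cmpk2 fell by 2.28 and 2.13, with an adjusted p of 0.0193 for Rsad2 without sham replicate 5. Members that did not pass included Isg15 (-1.59), Herc6 (-1.35), Ifit3 (-1.25), Oasl2 (-1.2) and Ifit2 (-1.17), and Mx1 (-0.56 ± 0.43), Irf7 (-0.79 ± 0.40), Oasl (-0.25 ± 0.65) and Mx2 (0.22 ± 0.25) did not pass either. In the landiolol group, which shares the sham arrays, Cxcl9 lay between 6.03 and 8.07 with a median of 7.41. The list held 12 to 15 called genes without any single array. With the row as a term it held 6, and 9 with the 3 CLP arrays of the upper row alone. Gbp2 no longer passed with the row as a term (adjusted p = 0.0106). Normexp correction gave a smaller log2 difference for Gbp4 (-1.79).

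**Figure D2:**
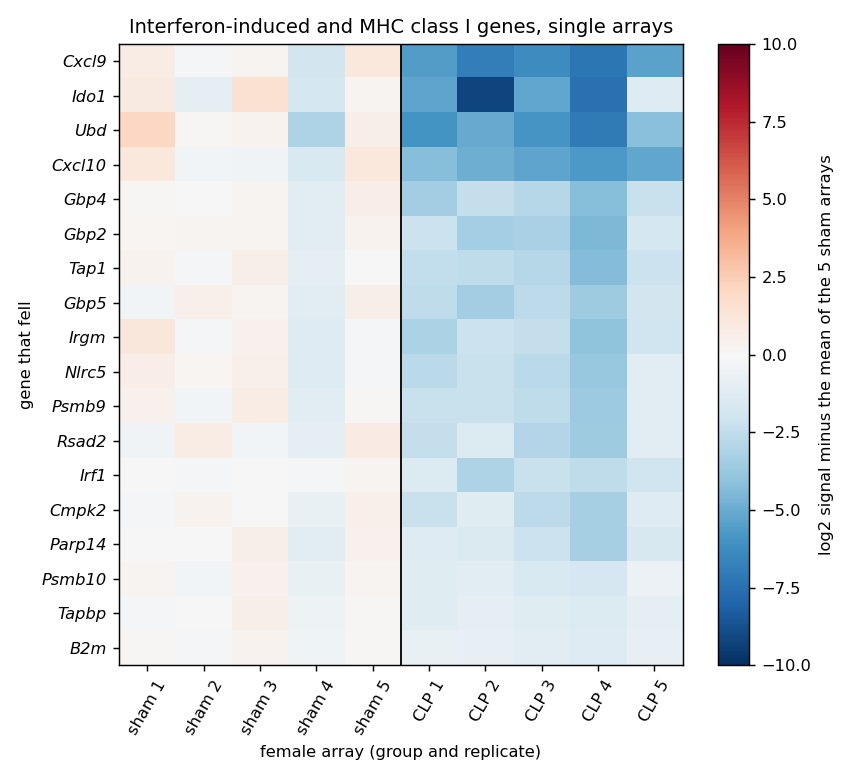
Each cell gives the log2 signal of a gene (rows) on a female array (columns) minus the mean of the 5 sham arrays, in blue where lower and in red where higher, for 18 genes of the interferon and MHC class I lists that fell. The 5 CLP columns are blue for all 18 genes, deepest for Cxcl9, Ido1, Ubd and Cxcl10, and sham replicate 4 is the lowest sham column for each of them.

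Interferon also governs peptide presentation by MHC class I. Of 12 measured genes of that pathway and of the immunoproteasome, 5 fell, against 1.89% of all genes, and none rose. All 12 were below 0 and the median was -1.17. Tap1, which pumps peptides into the endoplasmic reticulum, read 10.81, 10.38, 11.08, 9.54 and 10.5 on the 5 sham arrays and 7.98, 7.96, 7.6, 6.11 and 8.3 on the 5 CLP arrays. It fell by 2.88 ± 0.45 (adjusted p = 0.000921). Psmb9, a catalytic subunit of the immunoproteasome, fell by 2.34 ± 0.41 (adjusted p = 0.00212), and B2m, the light chain of every class I molecule, by 0.96 ± 0.17 (adjusted p = 0.00259). Psmb10 (-1.21) and Tapbp (-1.13) also passed, with an adjusted p of 0.0146 for Psmb10 without sham replicate 5 and of 0.0133 for Tapbp without CLP replicate 4. The count changed with single arrays. It was 3 without sham replicate 1, 3 or 5 or CLP replicate 3 or 4, 8 without CLP replicate 5, and 0 with the row as a term, whereas the 3 CLP arrays of the upper row alone gave 4. Among 8 MHC class II genes, RT1-Da and the class II transactivator Ciita passed, at -1.67 ± 0.31 and -1.89 ± 0.4. Their adjusted p values were 0.0105 for RT1-Da without sham replicate 1 and 0.0221 for Ciita without sham replicate 3. The class II median was -1.17, and Cd74 differed by -0.85 ± 0.22 (adjusted p = 0.0239). Tap1, Psmb9, Psmb10, Tapbp, RT1-Da and Ciita no longer passed with the row as a term (adjusted p from 0.0102 to 0.0617). With normexp background correction the log2 difference was smaller for Ciita (-0.94, adjusted p 0.013).

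The promoters of the largest changes were read from the RefSeq table of the GRCr8 build, as 250 bases that end just before the transcript start, to show which motifs of the factors above they hold. Of the 6 promoters searched, those of the chemokines and Ubd, which fell, and of Reg3b, which rose, are printed 5′ to 3′ in the direction of transcription with matches in capitals. Those of Gal and Tgm1 held no match, and the Saal1 entry was left out because the gene behind the name is not settled. The positions are chr4:112419526-112419775 (plus strand) for Reg3b, chr14:16006916-16007165 (plus) for Cxcl9, chr20:1392686-1392935 (minus) for Ubd and chr14:15988816-15989065 (plus) for Cxcl10.
Reg3b: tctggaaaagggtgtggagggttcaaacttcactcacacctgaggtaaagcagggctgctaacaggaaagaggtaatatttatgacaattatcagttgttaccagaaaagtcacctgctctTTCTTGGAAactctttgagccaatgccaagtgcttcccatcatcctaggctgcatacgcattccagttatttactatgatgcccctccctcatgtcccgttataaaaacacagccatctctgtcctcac
Cxcl9: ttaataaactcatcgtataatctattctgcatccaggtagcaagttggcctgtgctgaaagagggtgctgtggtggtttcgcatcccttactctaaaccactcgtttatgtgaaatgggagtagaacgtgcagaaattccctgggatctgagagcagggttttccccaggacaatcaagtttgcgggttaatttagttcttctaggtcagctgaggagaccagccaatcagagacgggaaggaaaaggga
Ubd: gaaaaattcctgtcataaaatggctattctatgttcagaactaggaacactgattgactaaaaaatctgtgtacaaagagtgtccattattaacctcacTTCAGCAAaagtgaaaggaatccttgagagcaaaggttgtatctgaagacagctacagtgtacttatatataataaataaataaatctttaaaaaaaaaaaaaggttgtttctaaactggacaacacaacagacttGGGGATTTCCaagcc
Cxcl10: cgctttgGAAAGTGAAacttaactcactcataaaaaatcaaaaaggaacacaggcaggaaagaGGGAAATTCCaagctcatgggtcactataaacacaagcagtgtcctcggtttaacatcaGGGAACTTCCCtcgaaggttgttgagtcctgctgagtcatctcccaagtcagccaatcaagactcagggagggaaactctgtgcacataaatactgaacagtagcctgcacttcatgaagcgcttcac
The motifs searched on both strands were GAS (TTCNNNGAA), ISRE (GAAANNGAA), C/EBP (TTGCNNAA), CRE (TGACGTCA), the E-box (CACGTG) and the NF-kappaB motif. The Reg3b window held a GAS match, the element bound by STAT dimers, that begins 129 bases before the start. The Ubd window held a match to C/EBP and a match to NF-kappaB, the latter 15 bases before the start. In the Cxcl10 window an ISRE match began 243 bases before the start and NF-kappaB matches 187, 128 and 127 bases before it, the last 2 overlapping on opposite strands. The Cxcl9 window held none of the 6. Over 33465 rat promoters of the same length, 7.67% held GAS, 8.12% ISRE, 6.33% NF-kappaB, 9.22% C/EBP, 1.59% CRE and 5.59% the E-box. A match describes letters and is not evidence of binding.

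Among the largest rises outside the immune lists were signalling and muscle genes. Gal, the precursor of the neuropeptide galanin, read 7.66, 8.95, 5.91, 6.21 and 4.42 on the 5 sham arrays and 13.55, 12.47, 11.34, 12.64 and 12.57 on the 5 CLP arrays. The groups were apart by more than 2 on the log2 scale and differed by 5.88 ± 0.92 (adjusted p = 0.000953). Tgm1, a protein-crosslinking transglutaminase, read 4.78, 6.02, 5.88, 9.16 and 7.89 on the 5 sham arrays and 11.49, 12.53, 12.91, 12.43 and 12.51 on the 5 CLP arrays. Its difference was 5.62 ± 0.67 (adjusted p = 0.000145). Myot, which encodes the Z-disc protein myotilin, read 8.2, 9.34, 7.9, 9.02 and 8.62 on the 5 sham arrays and 11.82, 12.26, 12.13, 12.55 and 11.4 on the 5 CLP arrays. It rose by 3.41 ± 0.33 (adjusted p = 3.11e-05), with all 3 of its measured probes passing. Ankrd2, a stretch-responsive ankyrin protein of muscle, was higher by 4.47 ± 0.95 (adjusted p = 0.00756), with CLP replicate 5 at 12.11 and the other CLP arrays between 7.05 and 9.36. It passed in only 1 of the 10 fits that left out an array, and its adjusted p was 0.0199 without sham replicate 2. The sarcomere and Z-disc list did not hold Myot. Ankrd2 was the only one of its 29 measured genes to pass, and the list median was 0.02. Cdo1, which oxidises cysteine on the way to taurine, read 5.09, 5.08, 5.44, 4.07 and 5.19 on the 5 sham arrays and 9.0, 8.45, 9.46, 9.41 and 10.09 on the 5 CLP arrays, a difference of 4.31 ± 0.5 (adjusted p = 0.000113). Scgb2a2, a secretoglobin, rose by 4.04 ± 0.53 (adjusted p = 0.000283). Neurl1, a ubiquitin ligase, was well above background on no sham array and on all CLP arrays and was at least 12.1-fold higher (measured means 3.78 and 7.88, adjusted p = 5.9e-05). Hcrtr1, an orexin receptor, was at least 2.37-fold higher on the same ground (measured means 2.55 and 5.52, adjusted p = 3.11e-05). Among the largest falls that belonged to no list were Pdzk1, a scaffold of membrane transporters (-3.41 ± 0.44), Fcer2, the low-affinity IgE receptor of B cells (-3.29 ± 0.5), and Slc4a1, the chloride-bicarbonate exchanger best known from red cells (-2.96 ± 0.45). Slc4a1 lay between 10.3 and 10.73 on the sham arrays and between 6.3 and 8.36 on the CLP arrays. Iqsec3 (-3.39), Cfap52 (-3.07) and MGC105567 (-3.19) lost their call without single arrays, with an adjusted p of 0.0121 for Iqsec3 without CLP replicate 4, 0.0137 for Cfap52 without sham replicate 1 and 0.011 for MGC105567 without sham replicate 3. Ankrd2, Iqsec3, Cfap52 and MGC105567 no longer passed with the row as a term (adjusted p from 0.0256 to 0.061). Under normexp correction of the background, smaller log2 differences were obtained for Ankrd2 (2.65, adjusted p 0.0441), Cdo1 (2.71), Scgb2a2 (1.94), Neurl1 (1.91), Hcrtr1 (0.76), Pdzk1 (-1.09), Fcer2 (-2.01), Iqsec3 (-1.15), Cfap52 (-1.44) and MGC105567 (-1.87). Ankrd2 (3.71, adjusted p 0.0226), Neurl1 (2.58), Hcrtr1 (0.32, adjusted p 0.0744), Pdzk1 (-1.38) and Iqsec3 (-1.49) were also smaller in the normalised table of the authors.

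**Figure D3:**
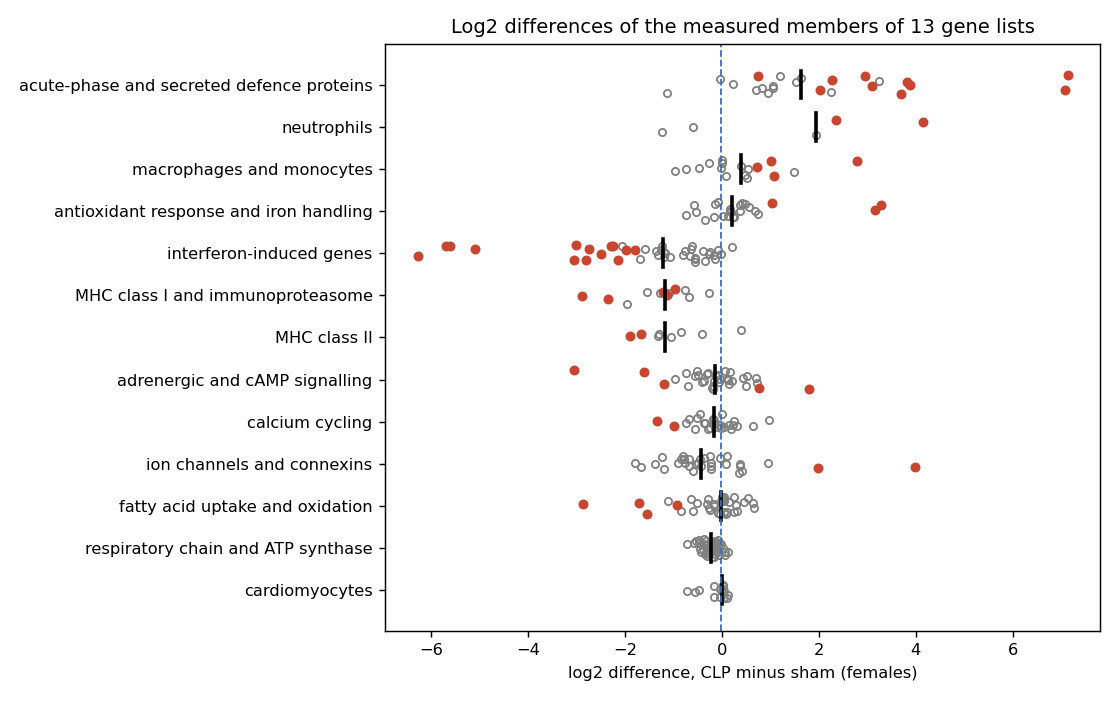
Each point is the log2 difference of a measured gene (horizontal axis, CLP minus sham in females) in 1 of 13 lists. Filled points passed an FDR of 1%, open points did not, black bars are list medians and the dashed line is the median of all genes. The acute-phase list lies to the right (median 1.63), the interferon and MHC lists to the left (medians from -1.22 to -1.17), and cardiomyocyte markers sit at 0.01.

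Landiolol, given to the remaining female group, blocks β1-adrenergic receptors. Of 34 adrenergic and cAMP genes measured, 2 rose and 3 fell, against 1.89% of all genes each way, and the median was -0.14. Adra1d, an α1-adrenergic receptor, read 8.65, 8.63, 8.83, 9.24 and 8.28 on the 5 sham arrays and 5.74, 6.0, 6.01, 5.65 and 4.96 on the 5 CLP arrays. The groups were far apart and the difference was -3.05 ± 0.31 (adjusted p = 4.32e-05). Adra1b, another α1-receptor, read 12.8, 13.1, 12.79, 13.69 and 13.3 on the 5 sham arrays and 11.73, 12.05, 11.57, 11.3 and 11 on the 5 CLP arrays. It fell by 1.6 ± 0.3 (adjusted p = 0.00352, and 0.0108 without sham replicate 4). The third of that family, Adra1a, differed by -0.55 ± 0.15 (adjusted p = 0.0336) at its brightest probe, with 1 of its 3 probes passing, and the β1-receptor Adrb1 by -0.18 ± 0.21 (adjusted p = 0.679). Akap6, which anchors protein kinase A at the nuclear envelope and the sarcoplasmic reticulum, read 10.32, 10.49, 10.32, 10.2 and 10.41 on the 5 sham arrays and 9.13, 8.91, 9.31, 9.19 and 9.24 on the 5 CLP arrays. With a spread of at most 0.15 (SD) in either group, it fell by 1.19 ± 0.16 (adjusted p = 0.000352). Pde10a, a phosphodiesterase that degrades cAMP and cGMP, read 7.1, 7.89, 7.91, 8.11 and 7.92 on the 5 sham arrays and 9.61, 9.6, 9.6, 9.6 and 9.44 on the 5 CLP arrays. Its rise was 1.79 ± 0.16 (adjusted p = 2.18e-05), and the 6 landiolol arrays lay between 8.35 and 8.76. Grk5, a kinase that desensitises β-receptors, read 8.71, 9.3, 9.07, 9.19 and 8.81 on the 5 sham arrays and 9.55, 9.6, 9.67, 10.16 and 9.92 on the 5 CLP arrays. Its brightest probe differed by 0.76 ± 0.17 (adjusted p = 0.00914) and the other probes by 1.24 (adjusted p = 0.00262) and by 1.07 (adjusted p = 0.00539). The brightest passed in 1 of the 10 fits that left out an array, with an adjusted p of 0.0289 without sham replicate 1. Crem, the cAMP-responsive repressor, was read by 5 probes. The brightest differed by 0.73 ± 0.31 (adjusted p = 0.164), and none of the 5 passed. Adra1b and Grk5 no longer passed with the row as a term (adjusted p from 0.0321 to 0.0766). Normexp correction gave a smaller log2 difference for Adra1d (-2.03).

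Of 27 calcium cycling genes 2 passed, and of 32 channel and connexin genes also 2, against 3.78% of all genes. Jph2, which holds the T-tubule to the sarcoplasmic reticulum, read 15.19, 15.29, 15.11, 15.64 and 15.41 on the 5 sham arrays and 14.1, 14.17, 13.76, 13.79 and 14.16 on the 5 CLP arrays. It fell by 1.33 ± 0.23 (adjusted p = 0.0022), and its other probe differed by -1.18 ± 0.44 (adjusted p = 0.109). Srl, the calcium-binding protein sarcalumenin, differed by -0.98 ± 0.21 (adjusted p = 0.00778, and 0.0217 without sham replicate 4) and was the other calcium gene that passed. The calcium pump Atp2a2 differed by -0.28 ± 0.17 (adjusted p = 0.365) and its inhibitor Pln by -0.17 ± 0.36 (adjusted p = 0.843). The 2 channel and connexin genes rose, at a list median of -0.44. Kcnk1, a potassium leak channel, read 3.84, 6.29, 3.36, 3.98 and 3.17 on the 5 sham arrays and 8.58, 7.13, 7.39, 8.84 and 8.66 on the 5 CLP arrays. Its difference was 3.99 ± 0.56 (adjusted p = 0.00043), and it was well above background on 1 sham array and on all 5 CLP arrays. Gja5, the gap junction protein of the conduction system and of arterial endothelium, read 7.45, 7.44, 8.74, 7.98 and 7.08 on the 5 sham arrays and 9.76, 9.41, 9.21, 10.44 and 9.81 on the 5 CLP arrays. Its brightest probe differed by 1.99 ± 0.29 (adjusted p = 0.000568) and its other probe by 1.6 ± 0.38 (adjusted p = 0.0148). The repolarising channels Kcnd2 (-1.37 ± 0.55) and Kcnd3 (-0.76 ± 0.27) did not pass. Jph2 and Srl no longer passed with the row as a term (adjusted p from 0.0145 to 0.0428). With normexp background correction the log2 difference was smaller for Kcnk1 (2.01). Kcnk1 (2.6) was also smaller in the normalised table of the authors.

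**Figure D4:**
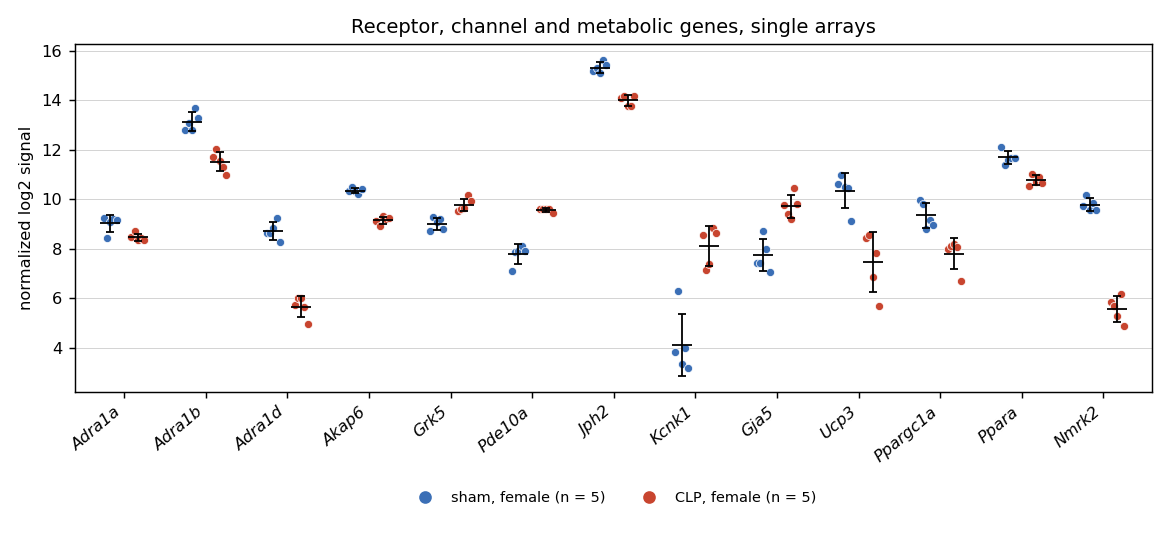
The normalised log2 signal (vertical axis) of 13 genes of adrenergic signalling, membrane structure, channels and metabolism is plotted for each of the 5 sham and 5 CLP arrays of females, with the group mean ± SD in black. Of the 13, Nmrk2 (-4.21) and Adra1d (-3.05) had the largest falls, whereas the groups of Adra1a overlap.

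The fatty acid genes that passed were transcriptional regulators and an uncoupling protein. Of 35 genes of fatty acid uptake and oxidation, 4 fell, against 1.89% of all genes, none rose, and the median was -0.01. Ppara, the receptor that switches on fatty acid oxidation genes, read 12.11, 11.4, 11.61, 11.67 and 11.68 on the 5 sham arrays and 10.54, 11.04, 10.71, 10.89 and 10.67 on the 5 CLP arrays. It fell by 0.92 ± 0.14 (adjusted p = 0.000801), with its other probes at -1.3 (adjusted p = 5.51e-05) and -0.46 (adjusted p = 0.244). Its coactivators Ppargc1a and Ppargc1b fell by 1.54 ± 0.28 and 1.7 ± 0.33 (adjusted p = 0.00304 and 0.00386). Ucp3, an uncoupling protein of the inner mitochondrial membrane, read 10.63, 11, 10.5, 10.47 and 9.13 on the 5 sham arrays and 8.43, 8.57, 6.87, 7.84 and 5.68 on the 5 CLP arrays. It fell by 2.87 ± 0.55 (adjusted p = 0.00369). The adjusted p was 0.012 for Ppargc1b without sham replicate 4 and 0.0118 for Ucp3 without CLP replicate 3. The transporter Cpt1b (0.05 ± 0.15) and the dehydrogenase Acadm (0.02 ± 0.28) did not pass. The list count was 2 without sham replicate 2 or CLP replicate 3, and 1 with the row as a term. None of 45 respiratory chain and ATP synthase genes passed in limma, with 15 at an unadjusted p under 0.05 and 2 called by SAM, although 41 of the 45 were below 0 at a median of -0.22. None of 30 genes of glucose uptake, glycolysis and glycogen passed either, with 10 at an unadjusted p under 0.05 and 4 called by SAM. In NAD metabolism Nmrk2, the nicotinamide riboside kinase of muscle, read 9.75, 10.19, 9.56, 9.87 and 9.59 on the 5 sham arrays and 5.87, 5.69, 5.27, 6.19 and 4.87 on the 5 CLP arrays. The fall was among the 15 largest of all genes, 4.21 ± 0.42 (adjusted p = 3.11e-05), and its dimmer probe differed by -1.34 ± 0.36 (adjusted p = 0.0278). Nmnat1, the nuclear enzyme of the next step, differed by -0.71 ± 0.15 (adjusted p = 0.00705, and 0.0222 without sham replicate 1), and Nampt, the rate-limiting enzyme of the salvage path, by -0.41 ± 0.25 (adjusted p = 0.361). Ppargc1a, Ppargc1b, Ucp3 and Nmnat1 no longer passed with the row as a term (adjusted p from 0.0103 to 0.0577).

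Few vascular and matrix genes passed. Those that did fell, and 1.89% of all genes tested fell. Apln, the ligand of the apelin receptor, read 11.49, 10.94, 11.3, 11.41 and 11.36 on the 5 sham arrays and 9.28, 8.72, 8.37, 8.12 and 7.69 on the 5 CLP arrays. It fell by 2.86 ± 0.36 (adjusted p = 0.000189). Angpt1, which stabilises vessels through the receptor Tek, read 10.78, 10.31, 10.69, 10.93 and 10.55 on the 5 sham arrays and 9.16, 9.44, 9.07, 8.44 and 7.6 on the 5 CLP arrays. It fell by 1.91 ± 0.34 (adjusted p = 0.00237), and these were the 2 that passed of 26 genes of endothelial activation and growth. The other Angpt1 probes differed by -2.04 and by -1.56 (adjusted p = 0.0145 and 0.0274). The adhesion molecules Icam1 (-0.88 ± 0.52), Vcam1 (-1.02 ± 0.44) and Sele (-1.13 ± 0.53) did not pass. Emcn, a surface mucin of capillary endothelium, fell by 1.34 ± 0.23 (adjusted p = 0.00165) as the only one of 14 endothelial markers, whose median was -0.07. Rgs5, a pericyte gene, differed by -0.91 ± 0.19 (adjusted p = 0.00587, and 0.0191 without sham replicate 1), alone among 10 pericyte and smooth muscle markers. Col15a1, a basement membrane collagen, fell by 1.42 ± 0.25 (adjusted p = 0.00243) as the only one of 29 matrix genes, and none of 12 fibroblast markers passed in limma, with 8 at an unadjusted p under 0.05 and 2 called by SAM. None of 13 matrix proteases and inhibitors passed, with 8 at an unadjusted p under 0.05 and 1 called by SAM. In the list of nitric oxide, arginine and polyamine genes 1 of 15 passed, Amd1 at -0.75 ± 0.17 (adjusted p = 0.00995, and 0.0309 without sham replicate 1). Angpt1, Rgs5, Col15a1 and Amd1 no longer passed with the row as a term (adjusted p from 0.0184 to 0.0413).

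Genes of iron, oxidative stress, survival and steroids held further named changes. The list counts that follow stand against 3.78% of all genes called. Hmox1, which breaks down haem, read 11.11, 11.35, 10.72, 10.42 and 11.04 on the 5 sham arrays and 13.39, 14.14, 15.2, 14.53 and 13.18 on the 5 CLP arrays. It rose by 3.16 ± 0.44 (adjusted p = 0.000391). Hamp, the iron-regulating hormone hepcidin, read 11.2, 11.27, 11.13, 9.31 and 12.24 on the 5 sham arrays and 13.61, 14.3, 14.58, 14.69 and 14.38 on the 5 CLP arrays. It rose by 3.28 ± 0.57 (adjusted p = 0.00198), and with the ferrireductase Steap4 (1.03 ± 0.15) these were 3 of 24 antioxidant and iron genes, at a list median of 0.21. The dimmer Steap4 probe differed by 0.54 (adjusted p = 0.301). Mt2A, a metallothionein that binds zinc, rose by 2.82 ± 0.54 (adjusted p = 0.00395, and 0.0124 without CLP replicate 3) as the only one of 8 metallothionein and zinc transporter genes. Of 19 glucocorticoid-induced genes, Fkbp5 (0.9 ± 0.19, adjusted p 0.00742, and 0.023 without sham replicate 5), Mt2A and Lcn2 passed, whereas Per1 differed by -0.19 ± 0.34 (adjusted p = 0.803) and none of 18 clock genes passed (4 at an unadjusted p under 0.05, 0 by SAM). The autophagy genes Sqstm1 (0.95), Ctsl (0.94) and Map1lc3b (0.84) rose among 25, with an adjusted p of 0.0146 for Ctsl without CLP replicate 4 and 0.0218 for Map1lc3b without sham replicate 5. Only some of the Map1lc3b probes passed, and the dimmest differed by 0.7 (adjusted p = 0.0575). Bcl2l1 and Mcl1, which restrain apoptosis, rose by 1.34 ± 0.24 and 0.6 ± 0.12 among 20 BCL2 family and cell cycle genes. Only 1 of the 3 Bcl2l1 probes passed and another was at -0.08, and Mcl1 had an adjusted p of 0.0147 without sham replicate 1. The other Mcl1 probe differed by 0.37 (adjusted p = 0.198). Ccnd1, a D cyclin, read 9.82, 10.05, 10.51, 9.79 and 9.9 on the 5 sham arrays and 8.92, 7.43, 7.57, 7.35 and 7.65 on the 5 CLP arrays. It fell by 2.23 ± 0.33 (adjusted p = 0.000586), CLP replicate 1 being the highest of its group. Hsd11b1, which regenerates active glucocorticoid, rose by 1.8 ± 0.26 (adjusted p = 0.000578), and the oestrogen receptor Esr1 differed by -0.18 ± 0.32 (adjusted p = 0.797). Single genes passed in the lists of heat shock chaperones (Hspe1, -0.69, 1 of 20), of the integrated stress response (Asns, 0.83, 1 of 23) and of cell division (Mcm4, 0.91, 1 of 26). Their adjusted p values were 0.0238 for Hspe1 without sham replicate 4, 0.0105 for Asns without CLP replicate 3 and 0.0113 for Mcm4 without sham replicate 1. None of 9 natriuretic peptide and stretch genes passed (3 at an unadjusted p under 0.05, 0 by SAM), and Nppa and Nppb differed by 1.03 ± 0.88 (adjusted p = 0.536) and by 0.55 ± 0.53 (adjusted p = 0.594). Hamp, Mt2A, Fkbp5, Sqstm1, Ctsl, Map1lc3b, Bcl2l1, Mcl1, Hspe1, Asns and Mcm4 no longer passed with the row as a term (adjusted p from 0.0157 to 0.0613). Under normexp correction of the background, smaller log2 differences were obtained for Fkbp5 (0.84, adjusted p 0.014) and Bcl2l1 (0.77). Fkbp5 (0.85, adjusted p 0.012) was also smaller in the normalised table of the authors.

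The medians of the other lists stood against -0.02 over all genes. They were -0.01 for heat shock chaperones, 0.03 for the integrated stress response, 0.01 for the BCL2 family and nitric oxide lists, -0.06 for endothelial activation, -0.08 for NAD metabolism, -0.14 for cell division and the clock, -0.17 for glucose metabolism and calcium cycling, and -0.2 for pericyte markers and the steroid list. Those farther from 0 were 0.2 for autophagy, 0.21 for metallothioneins, 0.26 for glucocorticoid-induced genes, 0.44 for natriuretic peptides, 0.48 for matrix proteases, -0.36 for matrix proteins and -0.55 for fibroblast markers. No gene passed in limma among 4 measured erythroid and platelet genes (median 0.86, 1 at an unadjusted p under 0.05, 0 by SAM), 2 adipocyte genes (-0.46, 1 and 0), 2 mesothelial genes (-0.12, 0 and 0) and 4 genes of atrial myocytes (0.27, 0 and 0). The summed erythroid signal lay between 2840 and 3290 on the sham arrays and between 3630 and 110000 on the CLP arrays, and the summed cardiomyocyte signal between 3690000 and 4120000 and between 3550000 and 4090000.

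Of 24 genes taken from those the study discusses by name or, as for Stat3 and Jak2, by family, all measured here, 4 rose and 3 fell in females. The share over all genes was 1.89% each way, but these genes were chosen by the study on these samples, so the count is not independent evidence. Fgf2, a growth factor stored in the matrix, read 7.03, 7.28, 7.26, 7.14 and 7.38 on the 5 sham arrays and 8.89, 8.53, 9.05, 8.66 and 9.55 on the 5 CLP arrays. It rose by 1.72 ± 0.21 (adjusted p = 0.000147). Tuba8, a muscle α-tubulin, read 14.77, 14.04, 14.72, 14.74 and 14.74 on the 5 sham arrays and 12.96, 12.68, 12.74, 13.12 and 13.04 on the 5 CLP arrays. It fell by 1.69 ± 0.2 (adjusted p = 0.000113). The others were Stat3, Pde10a, Grk5, Ccnd1 and Akap6, described above. Genes just outside the threshold were Aox3 (-1.49 ± 0.34, adjusted p = 0.0125), Tlr1 (1.26 ± 0.29, 0.0139) and Mapk14 (0.95 ± 0.25, 0.023), followed by Myh7b (-1.25 ± 0.34, 0.0314), Il6r (1.18 ± 0.33, 0.0358), Ppp2ca (0.55 ± 0.16, 0.0361) and Jak2 (1.22 ± 0.35, 0.0382). Il10 was well above background on no sham array and on 3 of the 5 CLP arrays, and was at least 1.37-fold higher at its brightest probe (measured means 3.12 and 4.74, adjusted p = 0.034), with 1 of its 2 probes passing. Myd88 (0.74 ± 0.23), Bcl2 (-0.78 ± 0.29), Plcb4 (-0.37 ± 0.15) and Gucy1a2 (-0.5 ± 0.26) had an adjusted p of 0.061, 0.114, 0.147 and 0.264. Atp2a3 (-0.34 ± 0.25), Cdkn1a (0.26 ± 0.19), Stag1 (0.14 ± 0.13) and Nfkb1 (0.11 ± 0.19) had one of 0.457, 0.477, 0.564 and 0.791.

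The same comparison in males served as a test of whether the female change differed between the sexes. Of the 735 female genes, 725 were also measured in males, and 723 of those had the same sign there, against 76.7% of all 18969 genes measured in both. Female and male arrays were hybridised on separate slides, so only the difference between the 2 CLP-minus-sham changes was tested, with all 32 arrays in 1 fit. In limma no gene of 20184 passed an FDR of 5% (0%), with 749 at an unadjusted p under 0.05 and a lowest adjusted p of 0.847. SAM was not run on this difference. At the same probes 1569 of 18969 genes passed an FDR of 1% in males (8.27%), and that larger count does not show that any gene differed between the sexes. The 5 genes with the smallest interaction p were Traf6, Cxcl9, Gja5, Armcx2 and Batf2. Cxcl9 differed by -6.27 ± 0.54 in females and -2.72 ± 0.59 in males, an interaction of -3.59 ± 0.83 in the fit of both sexes, which were normalised together there (adjusted p = 0.847, limma). Gja5 differed by 1.99 ± 0.29 in females and 0.07 ± 0.33 in males (adjusted p = 0.847 for the difference, limma). Traf6, an adaptor of Toll-like and IL-1 receptors, was at -0.84 ± 0.17 and 0.28 ± 0.17, and its female call had an adjusted p of 0.0185 without sham replicate 5. Armcx2 was at 0.67 ± 0.16 and -0.23 ± 0.14, and Batf2 at -3.3 ± 0.42 and -1.02 ± 0.37. For the interferon list the medians were -1.22 in females and -0.89 in males. For MHC class I they were -1.17 and -0.23, with 5 and 0 called of 12, and the acute-phase medians were 1.63 and 1.98. These list differences were not tested. Traf6 no longer passed with the row as a term (adjusted p = 0.0133).

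**Figure D5:**
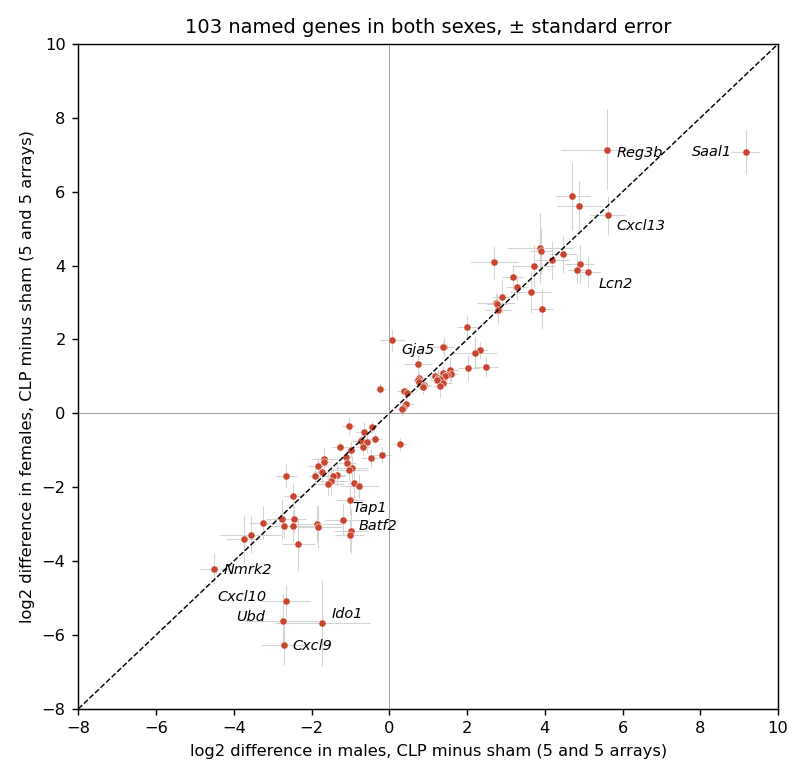
The log2 difference between CLP and sham in females (vertical axis) is plotted against that in males (horizontal axis) for 103 named genes, with standard errors in grey and the line of equal change dashed. Cxcl9, Cxcl10, Ubd and Ido1 lie below the line and Gja5 above it, and none of these distances passed the interaction test after adjustment.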

How the data were processed

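Left ventricular RNA was hybridised to 1-colour Agilent rat arrays, 1 rat per array. The authors deposited scanner files of Feature Extraction (10.5 per the labels) with rn4 annotation, whose processed intensity is background-subtracted within the array and not yet normalised between arrays, and a table of quantile-normalised log2 values of each sex, which was used only as an alternative. Here, log2 intensity of non-control spots without outlier flags was averaged per probe and quantile-normalised over the 16 female arrays. Of 45598 probes, 25380 were kept that were well above background in 80% or more of the arrays in 1 or more of the female groups. limma (3.58.1 in R 4.3.3) was fitted to the 3 female groups, CLP minus sham was tested two-sided, and p-values were adjusted over all probes by the Benjamini-Hochberg method at an FDR of 1%. A gene was reported by its brightest kept probe. Other probes of some called genes did not pass, and they are given for part of these genes only. The study tested with SAM, which was run as an alternative with 100 drawn permutations. The sex difference was an interaction term over 32 arrays at an FDR of 5%. No rn4 annotation of exons was used, so probes are placed by coordinates only. The number of arrays limits the precision. The fits were also tried on simulated data with independent noise. Those data held no effect of row or slide, so the trial does not bear on such effects.

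Genes were named by rule: the 15 largest rises and 15 largest falls among called genes with a symbol, well above background on every array of the sham or of the CLP group and without overlap of the groups, up to 4 called members of each of 43 lists with the members that define a list, 24 genes that the study discusses by name or family, the 10 with the lowest adjusted p and the 5 with the smallest interaction p. Other genes in the text were chosen after their values were seen. The members and lists were chosen with earlier results of these data known. RefSeq accessions named 1199 further probes, and 16861 stayed without a symbol. Replicates were numbered in accession order. Slide, row, the date-like code in the sample name and array weights, the filter, scaling and background correction, and leaving out each array were the alternatives. A few genes of these lists are not reported here by name, and the counts include them.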

Additional observations from a re-analysis of the deposited data

Results flagged for a closer look

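In 210 groups of 5 arrays, 2 for each of 105 named genes, 15 (7.14%) held an array whose distance to its nearest neighbour was above Dixon's critical value of 0.71 of the group's range, where chance alone marks about 1 in 20. CLP replicate 1 was high for Lyz2 (15.4, the others 14.62 to 14.79), Crem (13.24, the others 12.41 to 12.64) and Ccnd1 (8.92, the others 7.35 to 7.65). CLP replicate 5 was low for Ppargc1a (6.69, the others 7.98 to 8.18), Clec4a2 (7.91, the others 8.63 to 8.76) and Pde10a (9.44, the others 9.6 to 9.61), and CLP replicate 2 was low for Emcn (7.54, the others 8.04 to 8.23). Sham replicate 2 was low for Tuba8 (14.04, the others 14.72 to 14.77) and high for Hsd11b1 (10.79, the others 9.94 to 10.18) and Kcnk1 (6.29, the others 3.17 to 3.98). Sham replicate 4 was low for Gbp2 (14.34, the others 15.67 to 15.86) and Cdo1 (4.07, the others 5.08 to 5.44). Sham replicate 5 was low for Ucp3 (9.13, the others 10.47 to 11) and Pdzk1 (5.42, the others 6.76 to 7.13), and sham replicate 1 was low for Pde10a (7.1, the others 7.89 to 8.11).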

How the results depend on the processing

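The count of 735 genes was 440 when the spread was taken from the 10 arrays compared, 273 with a term for the slide's row, 1832 at an FDR of 5%, 1162 by SAM and, chosen after seeing the data, 324 with the 3 CLP arrays of the upper row alone. Leaving out 1 array gave 464 to 683, with 464 without sham replicate 1. The cause of these shifts was not tested. The other alternatives gave 594 to 1025 genes. All 735 genes kept their direction on each slide, in the upper row and with the row term. These comparisons reuse the arrays that made the calls, and the groups did not overlap for 691 of the 735. For those 691 genes the direction could not change, so this count is no test of slide or row. In all 10 fits without an array, 368 genes passed. Scaling and background correction left the median of all genes at -0.02 and -0.01. Of the 87 called genes taken by the naming rule, 23 had a log2 difference smaller by more than 1.5 times with normexp and 9 in the normalised table of the authors. The calls lost were 5 and 4, and 43 with the row term, under which 0 of the 87 changed in size by more than 1.5 times. Of the named genes only Nfkb1, which did not pass, changed sign (0.11, and -0.01 to 0.23 when single arrays were left out, the lowest without sham replicate 4). The sex difference had 0 genes in every fit run. No paired analysis applied, because each array held a different rat. Row and treatment cannot be fully told apart, because no sham array lay in the lower row. The row term rested on the CLP arrays alone. It therefore gives the same log2 differences as the fit with the 3 CLP arrays of the upper row.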
